A study of Mus musculus with 14 samples.

Results

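The B4 family is a group of mouse SINEs, short interspersed elements copied through RNA that is made by RNA polymerase III and inserted with the machinery of LINE elements. B4 elements are chimeras that join a part related to the tRNA-derived ID element to a part related to B1, which descends from the 7SL RNA of the signal recognition particle. RSINE1, ID_B1, B4A and B4 are the 4 repeat names in the family, and most genomic copies are old and lie outside exons. Round spermatids, the haploid cells that follow meiosis, carry their RNA and small RNA machinery in part in the chromatoid body, a granule beside the nucleus that contains the helicase MVH (Ddx4).

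The elements described here are every distinct place listed as class SINE and family B4 in the repeat element tables of the MVH immunoprecipitate (MVH IP) and of sorted round spermatids. They number 16688 of 129578 elements listed in either table. The MVH IP table lists 11740 B4 elements of 94297, that of round spermatids 6517 of 47338, and 1569 of 12057 shared elements are B4. The choice used class and family only, and no level.

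The study sequenced RNA of 14 libraries in 9 groups from testes of C57BL/6 mice at least 6 weeks old, taken at steps of a chromatoid body purification. The MVH IP group has 3 libraries, made with an MVH antibody from formaldehyde-crosslinked, sonicated testis cells. The protocol has the antibody added to the second pellet of the purification, whereas the sample types name the lysate as its source. The other groups used are sorted round spermatids (2 libraries, 1 of them from RNA above 500 bp) and whole testis lysate (1 library). No genotype other than the strain is given for these groups, and nothing says which libraries came from separate animals. Control immunoprecipitates (IgG and ACR) were not analysed here, so an MVH IP level has no antibody background beside it.

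Each group has 1 deposited value per element, pooled by the authors over its libraries, in FPKM (fragments per kilobase of element, scaled to the fragments of the library). There is therefore no SD, n or p-value for any difference below, and an element counts as higher or lower where the levels differ at least 2-fold on the log2(FPKM + 1) scale. Both tables start at 5 FPKM, so an element missing from one was below that floor or not listed, which is not the same as absent. Depth per library is unknown. Of 5 round spermatid markers, 4 were listed in MVH IP and 5 in round spermatids. Of 5 spermatocyte markers, 4 were listed in each table. Markers of somatic testis cells were listed in MVH IP, with 4 of 5 Leydig genes (at most 51.0 FPKM), 2 of 5 Sertoli genes and 1 of 5 macrophage gene symbols there against 0 of 5 of each list in round spermatids. The part of such cells in the B4 values was not tested, and in bulk RNA fewer cells of a type and less RNA per cell cannot be told apart.

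B4 elements made up 12.5% of listed elements in MVH IP and 13.8% in round spermatids. Among SINEs alone the share was 27.4% in MVH IP and 27.3% in round spermatids. The difference in the share of all elements turned round, to 12.2% in MVH IP against 11.7% in round spermatids, once elements that share both repeat name and value with another were left out. It also turned, to 14.8% in MVH IP against 14.7% in round spermatids, with places of at most 350 bp. B1 elements (Alu family) were more numerous, with 15857 in MVH IP and 9916 in round spermatids. B2 elements numbered 9999 in MVH IP and 3709 in round spermatids.

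RSINE1 was the most frequent name in both tables, with 4219 elements (35.9% of B4) in MVH IP and 2636 (40.4%) in round spermatids. B4A came next in MVH IP, with 3073 elements (26.2%) there and 1290 (19.8%) in round spermatids. ID_B1 held 2808 places (23.9%) in MVH IP and 1735 (26.6%) in round spermatids. The repeat named B4 itself, called B4 proper below, held 1640 (14.0%) in MVH IP and 856 (13.1%) in round spermatids. The shift in composition was thus mainly one of B4A, whose share was larger in MVH IP, against RSINE1 and ID_B1, whose shares were larger in round spermatids.

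Most listed B4 elements were low. The median was 20.2 FPKM in MVH IP and 11.7 FPKM in round spermatids, and that of all other elements was 17.5 FPKM in MVH IP and 12.1 FPKM in round spermatids. The middle 50% of B4 elements ran from 9.34 to 62.2 FPKM in MVH IP and from 7.15 to 24.4 FPKM in round spermatids. The names took a different order in each table. RSINE1 had the highest median in MVH IP, at 23.9 FPKM, and the lowest in round spermatids, at 10.8 FPKM. B4 proper had a median of 19.0 FPKM in MVH IP and the highest one in round spermatids, 14.9 FPKM. ID_B1 stood at 20.1 FPKM in MVH IP and 11.5 FPKM in round spermatids, and B4A at 16.98 FPKM in MVH IP and 12.0 FPKM in round spermatids. These medians lie within the wide spread between elements of every name.

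**Figure D1:**
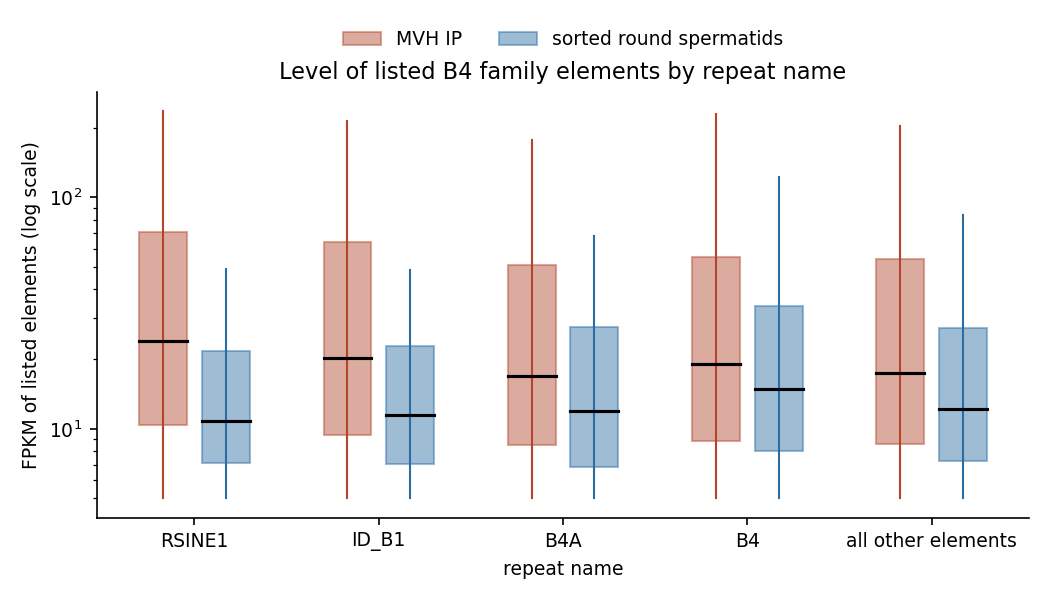
FPKM of listed elements (log axis) for each B4 repeat name and for all other elements, with MVH IP left of sorted round spermatids; boxes span the middle 50%, black bars are medians and lines run from the lowest value to the 90th percentile. RSINE1 has the highest median in MVH IP (23.9 FPKM) and the lowest in round spermatids (10.8 FPKM), and the boxes of all names overlap.

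A thin upper tail held much of the summed FPKM. Since FPKM is scaled to length, a share of this sum is not a share of fragments. In MVH IP 2077 B4 elements (17.7%) reached 100 FPKM, and in round spermatids 397 (6.09%) did, where the shares of all elements were 16.6% in MVH IP and 8.49% in round spermatids. At 1000 FPKM or more stood 321 B4 elements (2.73%) in MVH IP and 41 (0.629%) in round spermatids, beside 2.90% of all elements in MVH IP and 1.39% in round spermatids. At 10000 FPKM or more there were 42 (0.358%) in MVH IP and 8 (0.123%) in round spermatids, beside 0.332% of all elements in MVH IP and 0.0591% in round spermatids. The B4 share of round spermatids was thus under that of all elements at 1000 FPKM and over it at 10000 FPKM. The 10 highest B4 elements held 23.4% of all summed B4 FPKM in the MVH IP table and 51.2% in that of round spermatids. Each listed place was counted in full here, including places of close value that may not be separate measurements.

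The highest B4 family element of MVH IP was a B4 proper copy of 316 bp at chr8:119074519-119074834 (build mm9, as all coordinates here), with 92701 FPKM in MVH IP and 931 FPKM in round spermatids. It lay outside gene spans, 23465 bp from the span of Cdyl2, a chromodomain gene. The highest RSINE1, at chr19:41996669-41996820, had 77591 FPKM in MVH IP and 1124 FPKM in round spermatids. It lay 649 bp from Exosc1, which encodes a subunit of the RNA exosome, and was listed in the lysate table too. The highest B4A place, chr1:6960100-6960961, had 52269 FPKM in MVH IP and 2596 FPKM in round spermatids, and its 862 bp are longer than 1 SINE. The highest ID_B1, at chr4:26417936-26418034, had 38722 FPKM in MVH IP and 2110 FPKM in round spermatids. All 4 of these leading elements of MVH IP were listed in both tables and were higher in MVH IP.

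Round spermatids had a different top. A set of 6 B4A places stood between 39603 and 40346 FPKM there, and between 13026 and 13889 FPKM in MVH IP. Of these, 3 places of 97 bp each lay near one another on chromosome 6, at chr6:128710098-128710194, chr6:128748882-128748978 and chr6:128789066-128789162. All 3 were listed with 13026 FPKM in MVH IP, and with 40343, 40342 and 40331 FPKM in round spermatids. They lie among the Klrb1 genes, which encode lectin-like receptors of natural killer cells, at 10222 to 18308 bp from the nearest one. The other places of the set were chr18:60332699-60333686 (988 bp, longer than a SINE), chr17:27990047-27990124 (78 bp) and chr3:46664124-46664200 (77 bp). The one on chromosome 17 lay 1134 bp from Snrpc, which encodes a protein of the U1 small nuclear ribonucleoprotein. Although most shared B4 elements were higher in MVH IP, each of these 6 was lower there, with log2 ratios from -1.63 to -1.54. Since the 6 places had close values in each table despite different lengths, they may not be separate measurements. Whether they share fragments was not tested. A further B4A place at chr1:124090336-124090501 had 15638 FPKM in MVH IP and 19797 FPKM in round spermatids. The only other B4 element past 10000 FPKM in round spermatids was an ID_B1 copy at chr14:53081070-53081207, with 14452 FPKM and no listing in MVH IP, 1188 bp from the odorant receptor gene Olfr1508. These 8 elements held 48.6% of the summed B4 FPKM of round spermatids, a share that counts each of the 6 places of close value in full.

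Short places had high values. B4 places had a median length of 152 bp in MVH IP and 127 bp in round spermatids, and those of B4A had 208 bp in MVH IP and 123 bp in round spermatids. B4 elements of at most 50 bp had a median of 657 FPKM in MVH IP (100 elements) and 66.7 FPKM in round spermatids (246 elements). Those of 151 to 200 bp had 16.7 FPKM in MVH IP and 8.64 FPKM in round spermatids. Above 350 bp, longer than 1 SINE, were 759 places in MVH IP and 436 in round spermatids, with medians of 23.3 FPKM in MVH IP and 12.5 FPKM in round spermatids. The rank correlation of FPKM with length was -0.23 in MVH IP and -0.24 in round spermatids. The lowest value that was listed also depended on length. In MVH IP no element of any family with 46 bp was listed under 44.3 FPKM, with 63 bp under 16.1 FPKM, or with 83 bp under 6.68 FPKM, whereas 130 bp elements started at 5.02 FPKM. In round spermatids the lowest value at 46 bp was 5.45 FPKM. The libraries of both groups were cut from gels at 350 to 500 bp, above the length of most B4 places. How FPKM was scaled for places shorter than the fragments was not tested. A high FPKM of a short place therefore need not mean many fragments.

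**Figure D2:**
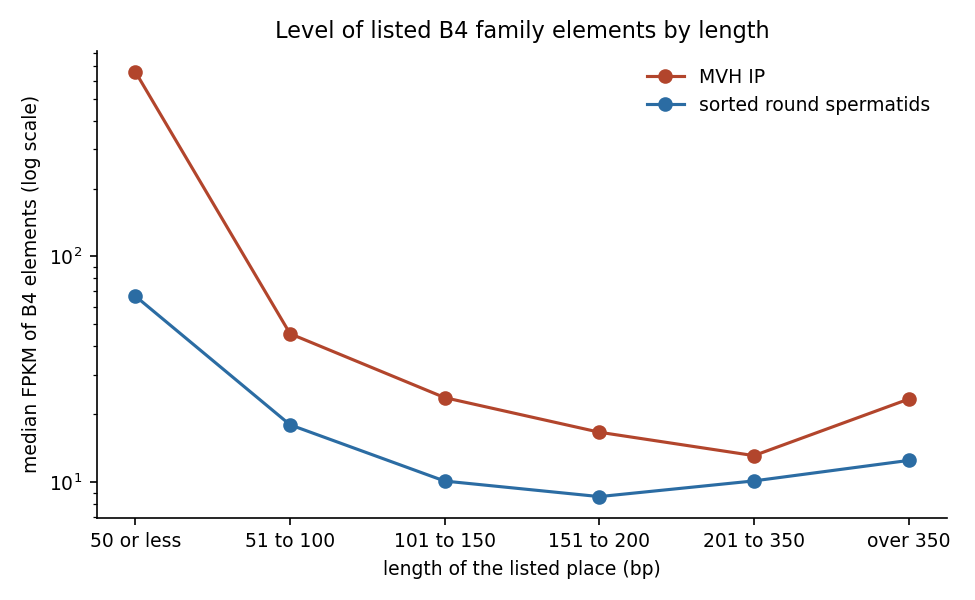
Median FPKM (log axis) of listed B4 elements by length of the place, for MVH IP and sorted round spermatids. The shortest class stands highest in each table, at 657 FPKM in MVH IP and 66.7 FPKM in round spermatids, and the longest class stands above the 151 to 200 bp class.

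B4 proper fragments of 46 or 47 bp formed a dense group of shared points. There were 17 such places in MVH IP and 33 in round spermatids, with 16 in both. Over all 33 places the level in round spermatids ran from 7.35 to 284 FPKM, with a median of 194 FPKM and 26 places at 180 FPKM or more. The shared ones ranged from 44.3 to 1019 FPKM with a median of 789 FPKM in MVH IP, and from 180 to 284 FPKM with a median of 202 FPKM in round spermatids. One example, chr11:32232538-32232583, had 1019 FPKM in MVH IP and 180 FPKM in round spermatids. Another, chr16:76625574-76625619, had 44.3 FPKM in MVH IP and 203 FPKM in round spermatids. Of the 13 places of exactly 46 bp in MVH IP, 12 had values that were whole multiples (within 0.2%) of 44.3 FPKM, the lowest value listed at that length, up to the multiple 23. Of all 113 elements of any family with 46 bp in MVH IP, 50 had such values, so the steps were not general at this length. Among places that show the steps, a difference in MVH IP can rest on few of them. All places listed in MVH IP lay on chromosomes 1, 10, 11, 12, 13, 15 and 16, which the group was not chosen for. Sorted as text, these names come first, and no place after chr16:76625574-76625619 in that order was listed in MVH IP. Those listed in round spermatids lay on 14 chromosomes, 2, 5 and X among them. Whether this order comes from how the values were made was not tested. The group was singled out after its values were seen.

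The overlap between the tables was small and grew with level. Of the B4 elements listed in MVH IP, 13.4% were also listed in round spermatids. Of those listed in round spermatids, 24.1% were also listed in MVH IP. For all elements the shares were 12.8% of the MVH IP list and 25.5% of the round spermatid list. RSINE1 had the largest shared part, at 16.9% of its MVH IP list and 27.1% of its round spermatid list, and B4A (10.6%) was lowest in MVH IP while ID_B1 (19.3%) was lowest in round spermatids. In MVH IP the shared part was 4.17% in the lowest decile of B4 level and 53.3% in the highest. Over all elements of MVH IP it was 2.48% in the lowest decile and 54.0% in the highest, a similar rise. In round spermatids the shared part of B4 was 18.4% in the lowest decile and 38.0% in the highest. For all elements of round spermatids it was 19.1% in the lowest decile and 53.5% in the highest. Deciles were cut separately for B4 and for all elements. In round spermatids the highest decile thus began at 58.7 FPKM for B4, and near 79.8 FPKM for all elements. Within the highest B4 decile of round spermatids, 47.7% of RSINE1 elements but 28.0% of ID_B1 elements were listed in MVH IP. Shared B4 elements had a median of 120 FPKM in MVH IP and 14.4 FPKM in round spermatids, and elements listed in 1 table alone had 17.3 FPKM in MVH IP and 10.9 FPKM in round spermatids.

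**Figure D3:**
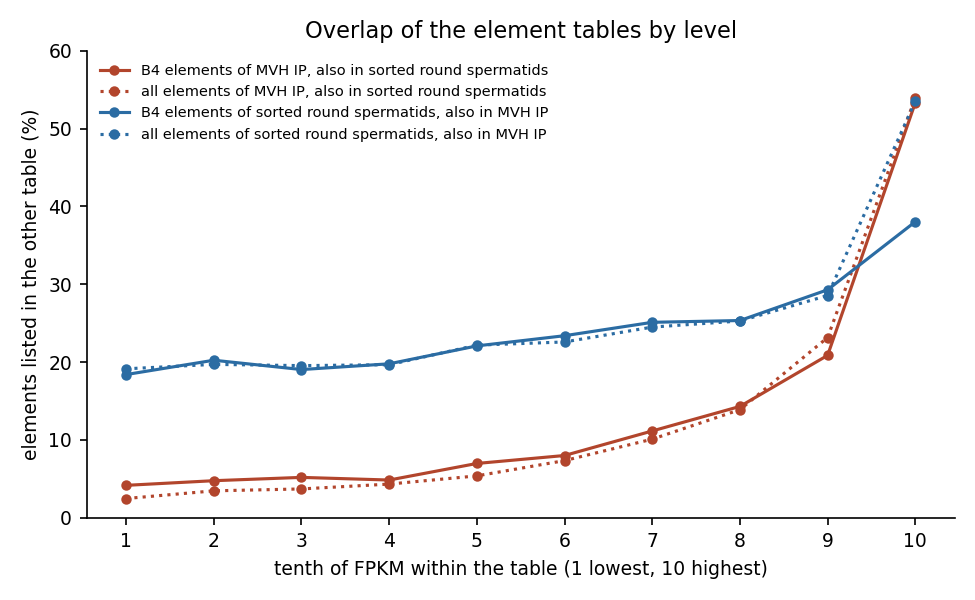
Percent of elements also listed in the other table, by decile of FPKM (1 lowest, 10 highest), for B4 elements (solid lines) and all elements (dotted lines) of MVH IP and of sorted round spermatids. Deciles were cut separately for B4 and for all elements. The B4 line of round spermatids ends at 38.0%, under the 53.5% of all elements, while both MVH IP lines end above 53%.

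The comparison of MVH IP with sorted round spermatids sets RNA of an immunoprecipitate from testis cells beside RNA of a sorted cell type. Among 1569 shared B4 elements, 1148 (73.2%) were at least 2-fold higher in MVH IP and 96 (6.12%) at least 2-fold lower. Over all 12057 shared elements 71.7% were higher and 7.32% lower, so the B4 shares were close to this background. The median log2 ratio was 2.53 for B4, with the middle 50% from 0.85 to 4.32, and 2.43 for all shared elements. The tables were scaled apart by the authors, so scaling and a general difference in RNA cannot be told apart. The MVH IP also came from crosslinked cells of the whole testis, without an antibody background beside it. A ratio can therefore not be assigned to the chromatoid body alone. Relative to the median of all shared elements, 584 B4 elements (37.2%) were higher and 498 (31.7%) lower, beside 33.5% higher and 34.2% lower for all elements.

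The names differed little in this ratio. The median log2 ratio of MVH IP over round spermatids was 2.80 for B4A (326 shared), 2.61 for ID_B1 (335), 2.49 for B4 proper (193) and 2.38 for RSINE1 (715), against 2.58 for B1 and 2.39 for B2. At least 2-fold higher in MVH IP were 77.3% of ID_B1, 75.6% of B4 proper, 72.4% of B4A and 70.9% of RSINE1 elements. The levels of the shared elements in the tables had a rank correlation of 0.40 for B4 and 0.50 for all elements. These points share their libraries and the length of the place, so the value is a description only.

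**Figure D4:**
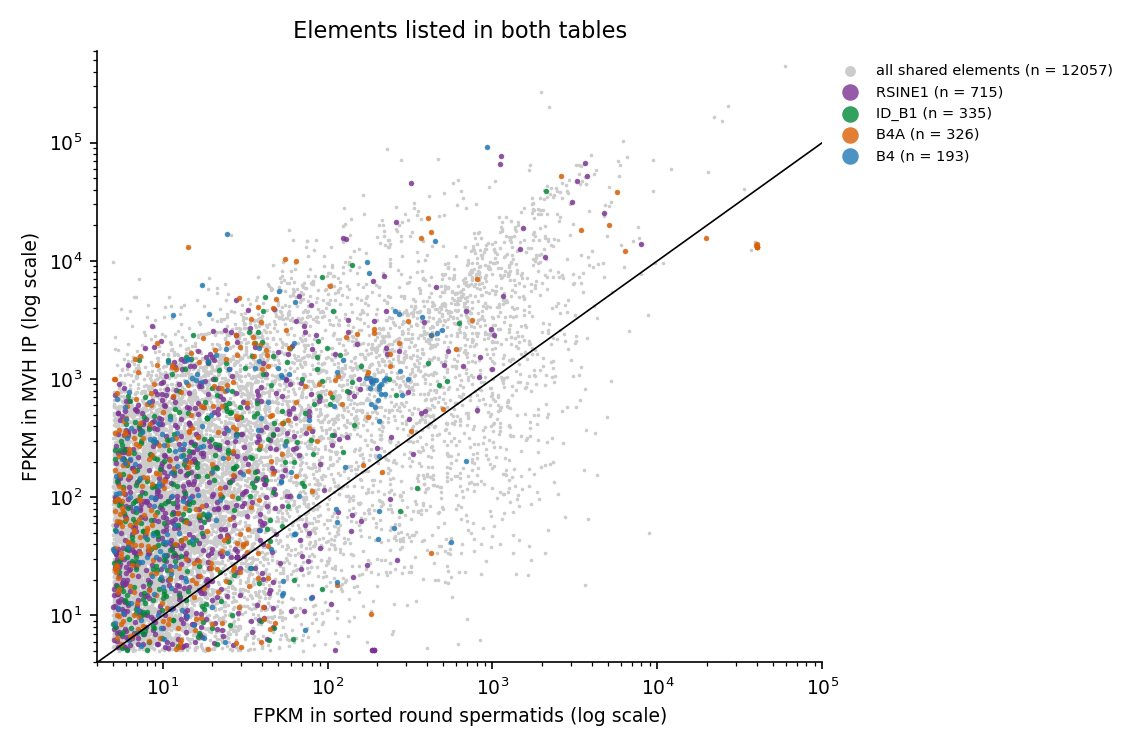
FPKM in MVH IP against FPKM in sorted round spermatids (both log axes) for all shared elements (grey) and for shared elements of each B4 repeat name (colours), where the line marks equal values. Most B4 points lie above the line (1148 of 1569 at least 2-fold), and 6 B4A points at 39603 to 40346 FPKM in round spermatids lie below it.

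Of the 6 highest ratios, 4 belonged to places under 100 bp. Over all shared B4 elements, those of at most 50 bp had a median log2 ratio of 2.36 (60 elements), below the 2.53 of the family. A 29 bp B4A fragment at chr9:54432898-54432926 had 13159 FPKM in MVH IP and 14.2 FPKM in round spermatids, a log2 ratio of 9.76. It lay 1391 bp from Idh3a, which encodes a subunit of the mitochondrial isocitrate dehydrogenase. A 28 bp B4 proper fragment at chr11:75098446-75098473 had 16764 FPKM in MVH IP and 24.5 FPKM in round spermatids, a log2 ratio of 9.36. A longer B4 proper place of 160 bp, chr1:92433060-92433219, had 6303 FPKM in MVH IP and 17.2 FPKM in round spermatids. An RSINE1 of 104 bp at chr2:153116242-153116345 had 1846 FPKM in MVH IP and 7.85 FPKM in round spermatids, and lay 806 bp from Kif3b, a kinesin motor gene. The remaining 2 of the 6 highest ratios were an RSINE1 of 33 bp on chromosome 3 (log2 8.19) and a B4 proper place of 79 bp on chromosome 11 (log2 8.12). That B4 proper place lay 8011 bp from the keratin gene Krt10.

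The 6 lowest ratios were all RSINE1 places of 130 bp on chromosome 8 or its unplaced part. Each had 5.11 FPKM in MVH IP. In round spermatids 3 had 190 FPKM, 2 had 186 FPKM and 1 had 110 FPKM. The placed copy at chr8:19754804-19754933, with 5.11 FPKM in MVH IP and 190 FPKM in round spermatids, lay 1201 bp from 4930467E23Rik. These values differ by log2 ratios from -4.97 to -4.19, and since copies share a length and values they may not be separate measurements.

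Among B4 elements listed in MVH IP alone, the 5 highest were a B4 proper copy at chr18:36417489-36417608 with 23833 FPKM and 4 ID_B1 places between 13223 and 16762 FPKM. The highest ID_B1 of these, at chr7:87493385-87493527, lay 2401 bp from the nearest gene span, that of Hddc3, and 455 bp from the listed gene Man2a2, a Golgi mannosidase. Among those listed in round spermatids alone, the ID_B1 copy near Olfr1508 was followed by a B4A place at chr7:29214421-29214521 with 6705 FPKM. That B4A place lies inside the span of Samd4b, an RNA-binding protein gene. An RSINE1 of 29 bp on chromosome X had 3592 FPKM, a B4A of 29 bp on chromosome 15 had 2850 FPKM and a B4 proper place at chr15:38212769-38212981 had 2797 FPKM in round spermatids.

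Many B4 elements shared their exact value with another of the same name. This was so for 1200 elements (10.2%) in MVH IP and 1831 (28.1%) in round spermatids, where the shares over all elements were 8.09% in MVH IP and 15.6% in round spermatids. Among other SINEs in MVH IP the shares were 17.9% of B1, 12.5% of B2, 14.4% of ID and 5.03% of MIR elements. In round spermatids these were 24.9% of B1, 12.8% of B2, 31.6% of ID and 19.2% of MIR elements. The B4 shares thus lay within the range of the other SINE families. Such B4 elements formed 498 groups in MVH IP, 362 of them of a single length, and 597 groups in round spermatids, 346 of a single length. In round spermatids 55 B4A places of 63 bp had 5.64 FPKM and 36 B4 proper places of 108 bp had 21.2 FPKM, all on the unplaced part of chromosome Y. In MVH IP the largest groups were 11 B4 proper places of 83 bp at 106 FPKM and 11 B4A places at 13.5 FPKM, all on chromosome 4. In groups of a single length, equal values can come from copies that cannot be told apart or from equal fragment numbers. These 2 sources cannot be separated here. Other groups held several lengths, such as 10 ID_B1 places of 110 to 207 bp at 6.25 FPKM in round spermatids. How equal values arose at different lengths was not tested.

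By chromosome, the number of B4 elements in MVH IP was 1.37 to 2.21 times that in round spermatids on each autosome and 2.89 times on chromosome X (454 in MVH IP, 157 in round spermatids), against 1.80 times over all chromosomes. Of the X elements of MVH IP 8.15% were also listed in round spermatids, and of those on each autosome 11.1% to 16.3%. Over elements of all families pooled, X had 2.55 times as many in MVH IP, within the autosome range of 1.48 to 2.57. Of these pooled X elements of MVH IP 8.22% were shared, against 11.4% to 15.6% on each autosome. The low shared part on X was thus not particular to B4. The B4 share of listed elements departed most on the unplaced part of chromosome Y. There, 22 of 566 listed elements (3.89%) were B4 in MVH IP and 143 of 341 (41.9%) in round spermatids. The names differed too, with 16 ID_B1, 5 RSINE1, 1 B4A and 0 B4 proper in MVH IP and 6 ID_B1, 1 RSINE1, 84 B4A and 52 B4 proper in round spermatids. B2 elements went the other way, with 134 in MVH IP and 3 in round spermatids. Of the 143 B4 elements of round spermatids there, 137 shared name and value with another, and 5 were listed in both tables.

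**Figure D5:**
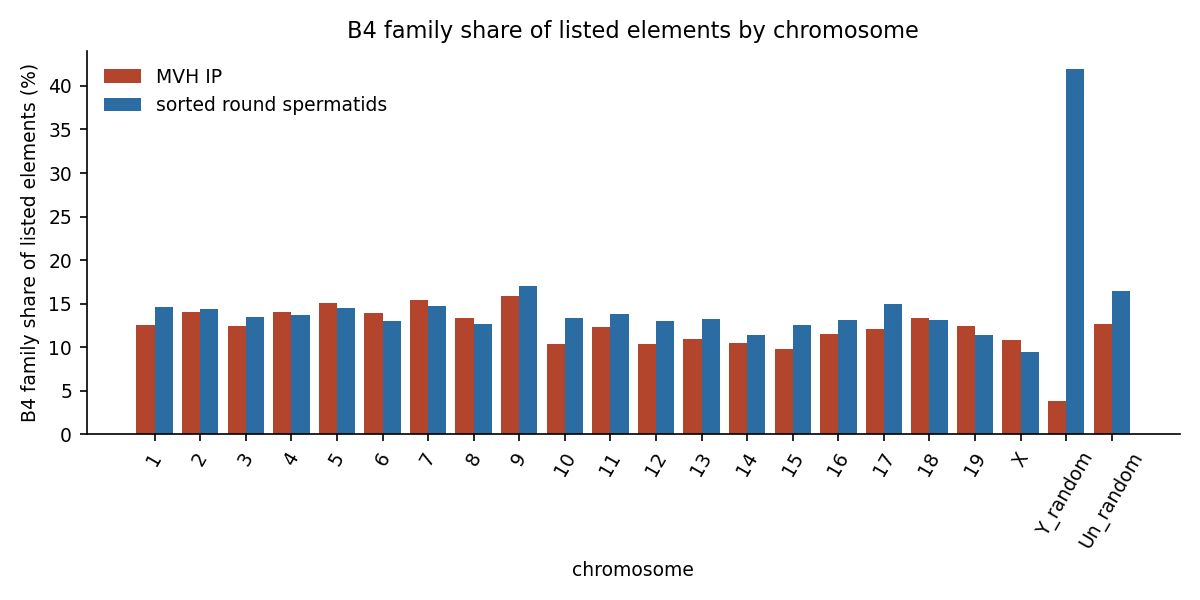
B4 share of listed elements (%) on each chromosome and on the unplaced parts Y_random and Un_random, with MVH IP left of sorted round spermatids. The shares are similar on the autosomes and X, and on Y_random they are 3.89% in MVH IP and 41.9% in round spermatids.

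Listed elements of all families, B4 among them, were almost all outside gene spans in both tables. Inside a gene span lay 184 (1.57%) in MVH IP and 127 (1.95%) in round spermatids, beside 1.23% of all elements in MVH IP and 1.72% in round spermatids. The B4 shares were thus near those of all elements. Gene spans cover 35.6% of the listed extent of the chromosomes, and whether both lists leave out places inside genes was not tested. The lysate table, by contrast, had 72.5% of its 2192 B4 elements and 60.6% of all its elements inside gene spans, so its lists inside genes are not set beside those of the other tables. Rbfox1, a splicing regulator with a very long span, held the most B4 elements in MVH IP, 20 of 5.19 to 1116 FPKM, and 12 of 5.31 to 400 FPKM in round spermatids. Dpf3, a chromatin remodelling subunit, held 7 in MVH IP and 12 in round spermatids. Chrm3, a muscarinic receptor gene, held 10 in MVH IP. The span shared by Ccl27b and Gm3893 held 7 in MVH IP and 4 in round spermatids. The span shared by Usp29, Zim3 and Mir3099 held 7 in MVH IP, 6 of them RSINE1. Levels of the genes in MVH IP differed widely, with 0.612 FPKM for Rbfox1 and 0.916 FPKM for Chrm3. Dpf3 had 81.6 FPKM and Ccl27b 137 FPKM there. Whether the B4 values come from transcripts of these genes was not tested. In round spermatids a span shared by the carcinoembryonic antigen genes Ceacam1 and Ceacam2 with Cxcl17 and 4732471J01Rik held 4. The span of 4921510H08Rik held 4 there. A gene span can thus take in several genes, and an element inside it need not lie within each of them.

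Where the host gene had a listed value, most elements of MVH IP were lower than the gene. Of 31 such B4 elements in MVH IP, 6 were at least 2-fold higher and 22 at least 2-fold lower than their host, beside 24% higher and 55.4% lower of 287 elements of any family. Of 52 in round spermatids, 7 were higher and 18 lower, beside 17.6% higher and 37.8% lower of 336 elements of any family. If several gene spans held an element, the listed gene with the highest FPKM was taken as its host, which can lower the ratio. With elements inside exactly 1 gene span, 3 were higher and 13 lower in MVH IP, and 5 higher and 5 lower in round spermatids. The median log2 ratio of element over host was -1.57 in MVH IP and -0.35 in round spermatids. For all elements with a listed host it was -1.33 in MVH IP and -0.59 in round spermatids.

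More of the elements near genes lay upstream of the gene than downstream. Within 5000 bp of a listed gene lay 907 B4 elements (7.73%) in MVH IP and 678 (10.4%) in round spermatids, beside 6.61% of all elements in MVH IP and 8.42% in round spermatids. Of these, 56.3% lay upstream of the gene in MVH IP and 59.1% in round spermatids, where the shares of all elements near genes were 54.1% in MVH IP and 58.3% in round spermatids. ID_B1 was nearest to genes, with 11.1% within that distance in MVH IP and 14.9% in round spermatids, of which 63.1% were upstream in MVH IP and 63.3% in round spermatids. B4A had 5.73% near genes in MVH IP and 6.05% in round spermatids. B4 proper had 5.24% in MVH IP and 7.36% in round spermatids. B1 elements had 11.4% near genes in MVH IP and 13.8% in round spermatids. B4 elements near genes had a median of 29.4 FPKM in MVH IP and 12.6 FPKM in round spermatids, and those over 100000 bp away had 18.4 FPKM in MVH IP and 11.4 FPKM in round spermatids. Their FPKM had a rank correlation with that of the gene of only 0.09 in MVH IP and 0.04 in round spermatids, a description over elements of the same libraries.

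B4 elements also lay inside assembled transcripts without a gene name. They numbered 164 (1.40%) in MVH IP and 263 (4.04%) in round spermatids, beside 1.25% of all elements in MVH IP and 3.76% in round spermatids. No B4 element of either table touched a listed piRNA cluster (0 of 11740 in MVH IP and 0 of 6517 in round spermatids), and of all elements 0 did in MVH IP and 1 in round spermatids. Elements inside such transcripts had a median of 56.1 FPKM in MVH IP and 14.2 FPKM in round spermatids, against 20.0 FPKM in MVH IP and 11.6 FPKM in round spermatids for the others. The MVH IP elements fell in 148 of 4922 transcripts, of which 76 were at least 2-fold higher in MVH IP than in lysate and 27 lower. The round spermatid elements fell in 212 transcripts, of which 88 were higher and 63 lower. Over all assembled transcripts 50.7% were higher and 25.1% lower.

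The genes that act on SINE RNA were set between MVH IP and lysate, since SINEs are made by RNA polymerase III and carry sequence related to 7SL RNA. Of 24 genes for RNA polymerase III, its factors and binding proteins of SINE RNA, 13 were at least 2-fold higher in MVH IP and 0 lower, beside 47.3% higher and 7.49% lower of all genes. Their median log2 ratio was 1.38, against 0.92 for all genes. Polr3f, a subunit of the polymerase, had 25.8 FPKM in MVH IP and 2.59 FPKM in lysate. Srp9, which binds the Alu-like part of 7SL RNA, had 154 FPKM in MVH IP and 53.9 FPKM in lysate. Its partner Srp14 had 176 FPKM in MVH IP and 62.6 FPKM in lysate. Maf1, a repressor of the polymerase, had 41.0 FPKM in MVH IP and 8.17 FPKM in lysate. Polr3e, another subunit, had 4.41 FPKM in MVH IP and 8.32 FPKM in lysate, a log2 ratio of -0.79. Relative to the median of all genes, 6 of the 24 were higher and 4 lower. These are values of 1 pooled MVH IP set and 1 lysate library, with no replicate check.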

How the data were processed

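Fragments were mapped and measured with TopHat and Cuffdiff on build mm9, per the submitters' processing notes; no source used here gives versions, read filters, library depth or how reads with several places were treated. The authors deposited element and gene levels as FPKM, per the file headers, with 1 value for the 3 MVH IP libraries and 1 for the 2 round spermatid libraries. The deposited lysate element values, also named FPKM in the header, were kept as a score without a unit, because 27.6% were whole and the lowest was 21.0, and only their listing was used. Elements were matched by name and place, after 7 repeated B4 rows in MVH IP and 11 in round spermatids were dropped and the highest value was kept. Starts were moved by 1 base so that coordinates count from 1. Ratios are log2(FPKM + 1) differences, which understate changes of low elements, and 2-fold was the size called. Genes needed a mean of 1 FPKM. Intervals on shares of elements, used to judge alternatives, were Wilson at 95% and cover counting only.

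The design foresaw no test for pooled values. Elements named are the 10 highest shared ones, the 6 highest and 6 lowest ratios, the 5 highest of each table alone and the highest of each name, plus the genes holding the most B4 elements; only some are described. Members and lists were chosen with earlier results of these data known. A column of small RNA values, 1 in number, was not used. Calculations used Python 3.11.15, pandas 2.3.3, NumPy 2.4.6 and SciPy 1.17.1 and were tested on simulated data.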

Additional observations from a re-analysis of the deposited data

How the results depend on the processing

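Of 58 alternative values, 40 stayed close to those reported and 18 moved. The difference in B4 share between the tables, larger in round spermatids as reported, was larger in MVH IP under 2 of the alternatives, as the values for places of at most 350 bp and for shared name and value show. Centring on the median of all shared elements gave 584 higher and 498 lower B4 elements, and for the RNA polymerase III list, an alternative chosen after seeing the data, 6 higher and 4 lower genes. At 10 FPKM or more, B4 made up 13.1% of MVH IP elements, and 16.6% of MVH IP and 27.5% of round spermatid B4 elements were shared. At 100 bp or more, B4 made up 15.0% of round spermatid elements. Places of at most 350 bp gave B4 shares of 14.8% in MVH IP and 14.7% in round spermatids. Leaving out elements with shared name and value gave 12.2% in MVH IP and 11.7% in round spermatids, with 28.8% of round spermatid B4 elements shared; these last 2 alternatives were also added after seeing the data. Spans of genes of at least 1 FPKM in MVH IP held 0.988% of MVH IP and 1.52% of round spermatid B4 elements. Elements inside exactly 1 gene span left 3 higher and 13 lower than their host in MVH IP, and 5 higher and 5 lower in round spermatids. The cause of these moves was not tested. No paired analysis was possible because the deposited values are pooled over libraries and carry no replicate number, and for the same reason no library could be left out. The floor of 5 FPKM and the unknown depth limit what a missing element shows.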

Other observations

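Of the 603 B4 elements that the lysate table lists outside gene spans, 83 (13.8%) were listed in MVH IP, 124 (20.6%) in round spermatids and 61 in both. Of all 9017 lysate elements outside gene spans, 13.3% were listed in MVH IP and 11.9% in round spermatids. The lysate B4 list held 667 RSINE1, 615 ID_B1, 593 B4A and 317 B4 proper elements.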
